A study of Arabidopsis thaliana with 58 samples.

Results

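The plants described here carried SDG2cd(H1866K)-ZF, a fusion of the catalytic domain of SDG2 with an artificial zinc finger, in which the catalytic domain has an H1866K missense mutation. SDG2 is the major enzyme of *Arabidopsis* that trimethylates H3K4, and the zinc finger, ZF108, was designed to bind *FWA*. All 4 libraries labelled SDG2cd(H1866K)-ZF were taken and set against all 3 Col-0 libraries, out of 47 BS-PCR-seq libraries and 58 samples in the series. In BS-PCR-seq, bisulfite converts unmethylated cytosine so that it is read as thymine, and the methylation level of a cytosine in a PCR product is the percentage of its reads left as C. The comparison addresses whether a fusion with a mutated catalytic domain changes the DNA methylation of *FWA*.

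Each of the 4 SDG2cd(H1866K)-ZF libraries came from leaf tissue of a plant of the Columbia-0 ecotype at an age of 4 to 5 weeks. The study presents them as representative T1 transgenic lines in the Col-0 background, with ZF108 and 3xFLAG fused to the mutated domain. It does not say how these lines were chosen. Beside them, 8 lines named SDG2-ZF carried the fusion without the mutation in the same background, driven by the *UBQ10* promoter, which is active in most tissues. The 3 *fwa* plants carry an inherited unmethylated form of the gene, and the 3 Col-0 plants carried no transgene. All groups share ecotype, tissue and age. The amplified regions do not cover the transgene, so the mutation, the protein level and the site of insertion were not measured in these libraries. Nothing in the labels says whether same-group libraries came from separate sowings, so p-values measure the spread between these plants.

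The labels carry 1 of 2 extraction texts, here called set 1 and set 2. The 4 SDG2cd(H1866K)-ZF libraries belong to set 2, as do 2 *fwa* and 2 Col-0 plants, while the 8 SDG2-ZF lines and the third *fwa* and Col-0 plants belong to set 1. Median depth per cytosine was 342171 to 416442 reads in the SDG2cd(H1866K)-ZF plants, 18043 to 42089 in the SDG2-ZF lines, 407158 and 502480 in the Col-0 plants of set 2 and 26112 in that of set 1. No cytosine had fewer than 46630 reads in an SDG2cd(H1866K)-ZF plant or 8924 in a Col-0 plant. The widest 95% Wilson interval at any cytosine was ± 0.304 percentage points in the SDG2cd(H1866K)-ZF plants and ± 0.705 in Col-0. These intervals cover counting error only, since the PCR products carried no molecular identifiers and several reads can come from 1 molecule, and they are narrow beside most differences between plants.

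*FWA* (AT4G25530) encodes a homeodomain transcription factor that delays flowering. Its expression is normally limited to the endosperm, and methylated tandem repeats around the transcription start keep it off elsewhere. In plants, CG methylation is copied at replication by MET1, CHG methylation is kept by CMT3, and CHH methylation depends on RNA-directed DNA methylation through DRM2 and on CMT2, where H is A, C or T. The glycosylases ROS1, DML2 and DML3 remove methylated cytosine in vegetative tissue.

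The gene lies on the plus strand of chromosome 4 from 13038360 to 13042464 (TAIR10). Region 1, chr4:13038143-13038272, ends 88 bases upstream of the annotated start. Region 2, chr4:13038356-13038499, covers the 58 bases of exon 1 and the first 82 bases of intron 1. Region 3, chr4:13038568-13038695, covers the last 61 bases of exon 2 and the first 67 of intron 2, and both exons are 5′ untranslated. With at least 10 reads, 74 cytosines were measured, all on the minus strand, with 14 CG, 3 CHG and 57 CHH cytosines. Regions 2 and 3 are copies of one tandem repeat, with 122 of 128 aligned bases identical and 1 gap base.

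Selected stretches, on the minus strand of the RefSeq TAIR10.1 sequence and 5′ to 3′, show the repeat copies side by side, the upstream CG cytosines and the surroundings of 2 cytosines described further on, with every measured cytosine in capitals. The first pair are the matching parts of intron 1 and intron 2, each of which holds the most methylated CHH cytosine of its region, in the run gCtaaaag near its right end.
Intron 1, chr4:13038418-13038499: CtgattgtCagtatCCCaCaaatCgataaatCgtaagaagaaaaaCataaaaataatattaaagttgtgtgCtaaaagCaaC
Intron 2, chr4:13038629-13038695: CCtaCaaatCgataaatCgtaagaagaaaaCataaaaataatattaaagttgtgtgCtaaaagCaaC
Upstream, chr4:13038223-13038272: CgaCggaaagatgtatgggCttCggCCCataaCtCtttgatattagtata
Exon 1 window, chr4:13038360-13038380: agCaaaaaCCCtagagCggCg
Exon 2 window, chr4:13038573-13038593: aaagCaaaaaCCgtaaagCgg
The upstream stretch holds the 3 CG cytosines of region 1. The exon 1 window has the CHH cytosine 13038370 at its centre, and the exon 2 window the CHG cytosine 13038583.

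CG methylation of the SDG2cd(H1866K)-ZF plants lay within the range of the 3 Col-0 plants, CHG methylation was above that range in every plant, and CHH methylation was higher on average with overlapping groups. CG cytosines averaged 85.7% ± 0.787 in SDG2cd(H1866K)-ZF and 86.7% ± 2.07 in Col-0 (SD, n = 4 and 3). The mean CHG level was 16.3% ± 1.17 in SDG2cd(H1866K)-ZF and 13.1% ± 1.48 in Col-0. The mean CHH level was 7.19% ± 1.11 in SDG2cd(H1866K)-ZF and 5.16% ± 1.17 in Col-0. A level is the unweighted mean over the cytosines of a context, and since leaf tissue mixes cells, more methylated cells and more methylation per cell cannot be told apart.

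The 4 SDG2cd(H1866K)-ZF plants had CG levels of 86.3%, 84.6%, 85.5% and 86.1%. The Col-0 plants had 84.3% and 87.8% in set 2 and 88.0% in set 1. All 4 transgenic plants fell between the lowest and the highest Col-0 plant, which rests on the first Col-0 plant of set 2. The difference was -1.04 percentage points, with a 95% interval of -3.53 to 2.04 from inverting the exact test, and the two-sided exact permutation test over plants gave p = 0.4 (adjusted p = 0.45 over 9 tests). Without that Col-0 plant all 4 transgenic plants were below both others and the difference was -2.23 points, at an exact permutation p of 0.0667, the smallest possible with 2 Col-0 plants, while it was -0.389 without the set 1 Col-0 plant and -0.495 without the second of set 2, and -0.682 without SDG2cd(H1866K)-ZF plant 2.

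For CHG, the SDG2cd(H1866K)-ZF plants had 16.1%, 15.0%, 17.9% and 16.1%. The Col-0 plants had 13.3% and 14.5% in set 2 and 11.6% in set 1. The groups did not overlap, and the lowest transgenic plant was plant 2. The difference was 3.13 percentage points (95% interval 0.288 to 6.84), at p = 0.0286, the smallest p that the 35 splits of the exact permutation test allow, and an adjusted p = 0.0429. That adjustment spans 9 tests, of which 5 others set these plants against SDG2-ZF or *fwa* at equally small or smaller p. Over the 3 contexts of the Col-0 comparison alone the exact permutation p adjusted to 0.0857, and against set 2 alone the difference was 2.36 points at p = 0.0667, the smallest p possible there, again without overlap. The adjusted exact permutation p was 0.0857 with pooled reads and 0.739 with a minimum of 1 read, a setting that adds cytosines with very few reads at equal weight.

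For CHH, the SDG2cd(H1866K)-ZF plants had 6.86%, 5.76%, 8.03% and 8.10%. The Col-0 plants had 4.73% and 6.48% in set 2 and 4.27% in set 1. The overlap came from SDG2cd(H1866K)-ZF plant 2 and the second Col-0 plant of set 2. The difference of 2.03 percentage points did not pass the exact permutation test (p = 0.114, adjusted p = 0.147, 95% interval -1.31 to 4.16), and within set 2 it was 1.58 points (p = 0.2).

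**Figure D1:**
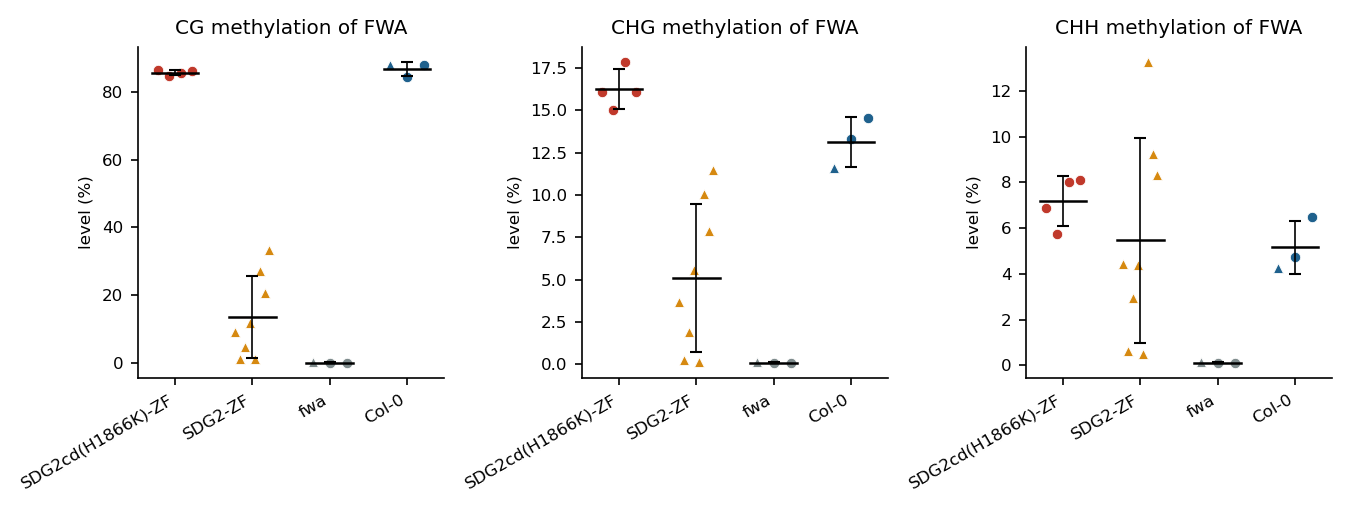
Methylation level of *FWA* in percent (y axis) for CG, CHG and CHH, with 1 point per plant, circles for set 2 and triangles for set 1, a bar for the mean and whiskers of 1 SD. The 4 SDG2cd(H1866K)-ZF plants lie from 84.6% to 86.3% in CG, beside 3 Col-0 plants from 84.3% to 88.0%, and lie above all Col-0 plants in CHG only.

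Against *fwa*, the same plants were higher in each context. The *fwa* plants had CG levels of 0.0806%, 0.0835% and 0.228%, CHG levels of 0.0803% to 0.107% and CHH levels of 0.114% to 0.136%. They serve as the background of the assay, since cytosine left unconverted is read as methylated. The differences were 85.5 points in CG, 16.2 in CHG and 7.06 in CHH, each at the smallest exact permutation p of 0.0286 (adjusted p = 0.0429). None of the 3 passed after adjustment with a minimum of 1 read or with pooled reads. In both settings each exact permutation p before adjustment stayed at 0.0286. Against the set 2 plants of *fwa* alone none could pass, since the smallest exact permutation p was 0.0667.

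Against the SDG2-ZF lines, which carry the unmutated domain, CG and CHG were higher in SDG2cd(H1866K)-ZF and CHH was not called. The 8 SDG2-ZF lines had a lowest CG level of 1.19%, a median of 10.4% and a highest of 33.5%. The CG difference was 72.0 percentage points, SDG2cd(H1866K)-ZF minus SDG2-ZF, and the groups did not overlap (exact permutation p = 0.00202, the smallest p possible, adjusted p = 0.00909). In CHG the lines had a lowest level of 0.111%, a median of 4.61% and a highest of 11.5%, all below the lowest SDG2cd(H1866K)-ZF plant, a difference of 11.2 points with the same exact permutation p and adjusted p. With a minimum of 1 read in place of 10, this CHG difference was 9.78 points and no longer passed the exact permutation test (p = 0.354, adjusted p = 0.533). That setting adds cytosines with fewer than 10 reads, each weighted like the deeply read ones. In CHH the lines ran from 0.5% over a median of 4.41% to 13.3%, on both sides of the 5.76% to 8.10% of SDG2cd(H1866K)-ZF. Line 13 at 13.3%, line 14 at 9.25% and line 15 at 8.32% were above every SDG2cd(H1866K)-ZF plant, although their CG levels were 27.0%, 20.6% and 33.5%. The CHH difference was 1.72 points (95% interval -3.58 to 6.63, exact permutation p = 0.469, adjusted p = 0.469). It was 1.01 points without line 12, 1.03 without line 6 and 2.84 without line 13, none of which passed. All SDG2-ZF lines are of set 1 and all SDG2cd(H1866K)-ZF plants of set 2, so construct and set cannot be told apart in this comparison. The Col-0 plants of both sets had CG levels of 84.3% or more.

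At single CG cytosines, none of the 14 passed the test between SDG2cd(H1866K)-ZF and Col-0, and in no case did all 4 plants lie on one side of Col-0. Over all 74 cytosines, 0 passed an adjusted p under 0.05 in the exact permutation test (0% of those tested), and 7 had an unadjusted p under 0.05, all higher in SDG2cd(H1866K)-ZF (9.46%). The quasi-binomial model on the counts also called 0. With 4 plants against 3, at least 43 cytosines would have to reach the smallest p before any could pass.

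In region 1, the CG cytosine 13038250 had 85.8% ± 1.89 in SDG2cd(H1866K)-ZF and 86.7% ± 2.69 in Col-0. The second, 13038269, had 86.6% ± 1.14 in SDG2cd(H1866K)-ZF and 87.1% ± 1.85 in Col-0. The third, 13038272, had 93.6% ± 0.375 in SDG2cd(H1866K)-ZF and 93.9% ± 0.762 in Col-0. Each mean was lower in SDG2cd(H1866K)-ZF by less than 1 SD of Col-0.

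In region 2, exon 1 holds 3 CG cytosines. The one at 13038361, next to the annotated start, was the lowest of the region, with 72.3% ± 1.59 in SDG2cd(H1866K)-ZF and 75.7% ± 4.77 in Col-0. Its values were 73.8%, 71.1%, 70.7% and 73.5% in SDG2cd(H1866K)-ZF, against 71.3%, 75.0% and 80.8% in Col-0, the last being the set 1 plant. That plant stood apart at this cytosine, and the others overlapped. At 13038364 the levels were 87.7% ± 0.434 in SDG2cd(H1866K)-ZF and 89.3% ± 1.92 in Col-0. At 13038385 they were 87.0% ± 0.670 in SDG2cd(H1866K)-ZF and 88.0% ± 2.27 in Col-0. Both of these cytosines have a copy in region 3. In intron 1, 13038468 had 85.9% ± 0.229 in SDG2cd(H1866K)-ZF and 86.2% ± 1.28 in Col-0, and 13038476 had 90.4% ± 0.705 in SDG2cd(H1866K)-ZF and 91.1% ± 0.293 in Col-0.

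In region 3, exon 2 holds the 4 CG cytosines with a higher mean in SDG2cd(H1866K)-ZF, by 0.02 to 0.39 points. The one at 13038575 had 95.3% ± 0.3 in SDG2cd(H1866K)-ZF and 94.9% ± 0.529 in Col-0, and 13038582 had 91.4% ± 0.522 in SDG2cd(H1866K)-ZF and 91.2% ± 1.34 in Col-0. At 13038596 the levels were 94.3% ± 0.226 in SDG2cd(H1866K)-ZF and 94.0% ± 0.755 in Col-0, and at 13038606 they were 89.6% ± 0.813 in SDG2cd(H1866K)-ZF and 89.6% ± 1.75 in Col-0. None of these differences exceeded the spread between Col-0 plants.

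The 2 CG cytosines of intron 2 were less methylated and more variable. At 13038678 the levels were 64.4%, 58.2%, 62.0% and 63.3% in SDG2cd(H1866K)-ZF, against 57.8%, 68.1% and 71.5% in Col-0. At 13038686 they were 79.5%, 74.3%, 77.4% and 77.6% in SDG2cd(H1866K)-ZF, against 75.1%, 83.5% and 82.1% in Col-0. The first Col-0 plant of set 2 was lowest of its group at 13 of the 14 CG cytosines, and SDG2cd(H1866K)-ZF plant 2 was lowest of its own group at 8. The copies of these cytosines in intron 1, 13038468 and 13038476, sit in the same local sequence and had 85.9% and 90.4% in SDG2cd(H1866K)-ZF.

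Of the 3 CHG cytosines, 2 had all SDG2cd(H1866K)-ZF plants above all Col-0 plants. The highest, 13038491 in intron 1 (context CAG), had 32.2%, 30.9%, 36.4% and 32.5% in SDG2cd(H1866K)-ZF, against 27.1%, 29.9% and 24.1% in Col-0. The groups were separated by less than 1 point, and the mean difference was 5.96 points (exact permutation p = 0.0286, adjusted p = 0.229). The other, 13038583 in exon 2 (context CCG), had 10.6%, 9.53%, 11.1% and 10.7% in SDG2cd(H1866K)-ZF, against 8.51%, 8.10% and 6.50% in Col-0, a difference of 2.76 points with the same exact permutation p and adjusted p. The third, 13038499 in intron 1 (context CTG), had 5.52%, 4.74%, 6.09% and 4.93% in SDG2cd(H1866K)-ZF, against 4.22%, 5.56% and 4.17% in Col-0. There the groups overlapped (exact permutation p = 0.314). By region, the CHG levels gave differences of 3.31 points in region 2 and 2.76 in region 3, each at an exact permutation p of 0.0286 and an adjusted p of 0.114 over 8 region tests. The region 3 value is that of 13038583 alone. This p is the smallest possible, and it passes only where more of the 8 region tests reach it. Region 1 has no CHG cytosine.

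For 55 of the 57 CHH cytosines the mean was higher in SDG2cd(H1866K)-ZF than in Col-0, and against set 2 alone this also held for 55. The median difference over the 57 was 1.42 percentage points and the median ratio 1.43. Neighbouring cytosines share reads and plants and are not independent, and 5 of the 57 had an unadjusted p under 0.05 in the exact permutation test. The exceptions were 13038253 (difference -0.39) and 13038195 (difference -0.02), both in region 1. Over the 57 cytosines SDG2cd(H1866K)-ZF plant 2 was lowest of its group at 55, and the second Col-0 plant of set 2 was highest of its group at 49. Plant 2 was above that Col-0 plant at 11 of 57 cytosines, while plants 1, 3 and 4 were above it at 40, 52 and 51.

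A mean of at least 10% in either group was found at 13 CHH cytosines, 3 in region 1, 6 in region 2 and 4 in region 3. In region 1, 13038171 had 10.6%, 9.04%, 13.3% and 13.5% in SDG2cd(H1866K)-ZF, against 6.74%, 11.2% and 5.21% in Col-0. At 13038246 the values were 15.8%, 13.2%, 18% and 19.7% in SDG2cd(H1866K)-ZF, against 12.9%, 17.5% and 14.4% in Col-0. At 13038253 they were 10.6%, 9.35%, 12.0% and 12.8% in SDG2cd(H1866K)-ZF, against 9.80%, 12.7% and 12.3% in Col-0. The groups overlapped at all 3, and the second Col-0 plant of set 2 was above 2 of the SDG2cd(H1866K)-ZF plants at 13038246 and above 3 of them at 13038253.

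In region 2, the CHH cytosine 13038370 of exon 1 had 20.9%, 18.4%, 25.4% and 26.5% in SDG2cd(H1866K)-ZF, against 15.2%, 21.9% and 11.6% in Col-0. At 13038411 the values were 13.6%, 11.3%, 16.8% and 16.7% in SDG2cd(H1866K)-ZF, against 8.02%, 11.6% and 7.86% in Col-0. At 13038417, the last base of exon 1, they were 16.6%, 13.9%, 20.6% and 20.3% in SDG2cd(H1866K)-ZF, against 10.8%, 14.7% and 9.34% in Col-0. At each of these the second Col-0 plant of set 2 exceeded SDG2cd(H1866K)-ZF plant 2. The same held in intron 1. There, 13038418 had 13.4%, 11.1%, 17.0% and 16.6% in SDG2cd(H1866K)-ZF, against 8.22%, 11.7% and 7.92% in Col-0. The next, 13038421, had 18.9%, 15.8%, 23.6% and 23.2% in SDG2cd(H1866K)-ZF, against 11.6%, 17.6% and 10.7% in Col-0. The most methylated CHH cytosine of the locus, 13038428, had 28.3%, 24.3%, 33.7% and 34.6% in SDG2cd(H1866K)-ZF, against 17.9%, 25.5% and 16.8% in Col-0. It also had the largest difference, 10.18 points (exact permutation p = 0.0857, adjusted p = 0.229).

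In region 3, the highest CHH cytosines were the copies of those at the exon 1 boundary. At 13038628, the last base of exon 2, the values were 15.1%, 12.2%, 17.0% and 16.0% in SDG2cd(H1866K)-ZF, against 10.2%, 13.6% and 9.81% in Col-0. At 13038629 they were 11.6%, 9.35%, 13.2% and 12.5% in SDG2cd(H1866K)-ZF, against 8.25%, 10.5% and 7.61% in Col-0. At 13038632 they were 16.1%, 12.7%, 18% and 17.2% in SDG2cd(H1866K)-ZF, against 11.3%, 13.7% and 10.3% in Col-0. In intron 2, 13038639 had 25.2%, 20.6%, 27.4% and 27.6% in SDG2cd(H1866K)-ZF, against 18%, 23.2% and 15.0% in Col-0. All 4 gave an exact permutation p of 0.0857, with only plant 2 inside the Col-0 range.

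The other 44 CHH cytosines stayed under 10% in both groups. The 16 in region 1 had means of 0.123% at 13038173 to 9.47% at 13038245 in SDG2cd(H1866K)-ZF, against 0.0954% to 8.79% in Col-0. The 15 in region 2 had 0.977% at 13038485 to 9.70% at 13038391 in SDG2cd(H1866K)-ZF, against 0.851% to 6.77% in Col-0. The 13 in region 3 had 1.18% at 13038570 to 9.75% at 13038602 in SDG2cd(H1866K)-ZF, against 1.04% to 6.29% in Col-0. At no CHH cytosine did a *fwa* plant exceed 0.408%.

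**Figure D2:**
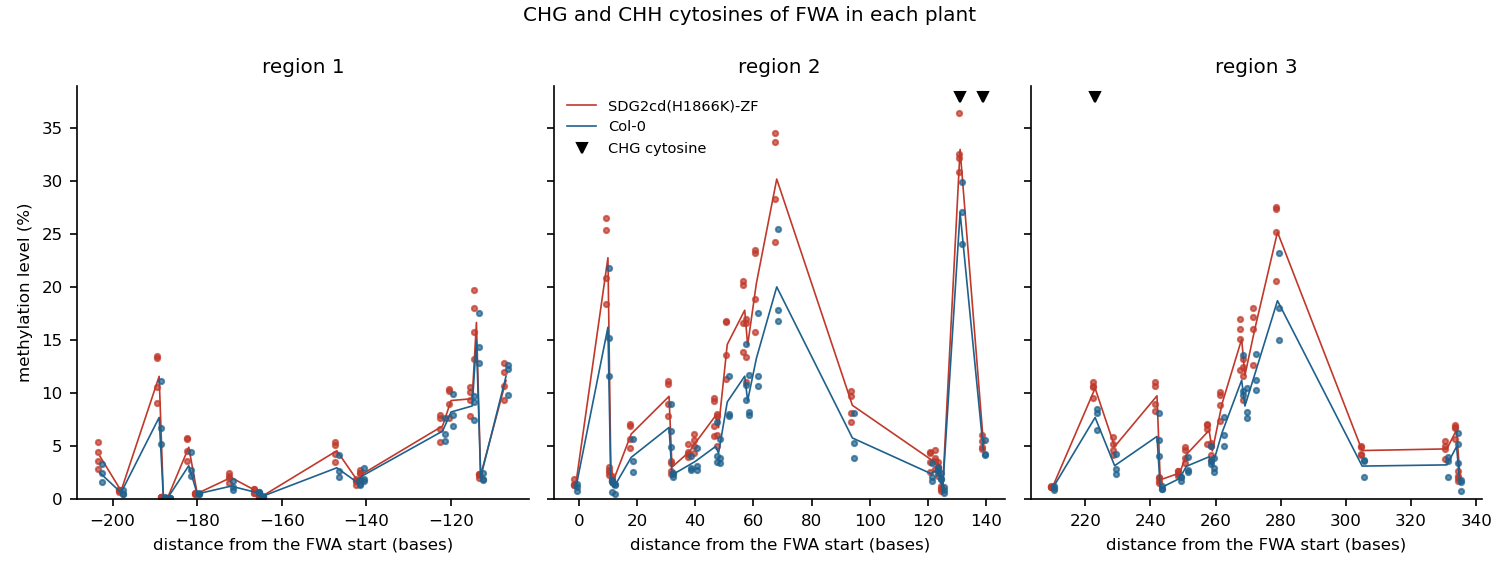
Methylation level in percent (y axis) of each CHG and CHH cytosine against its distance in bases from the annotated *FWA* start (x axis), for the 3 regions. Points are single plants, 4 of SDG2cd(H1866K)-ZF and 3 of Col-0, lines join the group means, and black triangles mark the 3 CHG cytosines. The peak of CHH methylation in region 2, at 34.6% in SDG2cd(H1866K)-ZF plant 4, recurs in region 3, at 27.6% in the same plant.

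Complete separation of the plants was seen at 9 of the 74 cytosines (12.2%), always with SDG2cd(H1866K)-ZF higher, and at 10 (13.5%) against set 2 alone. They were the CHG pair above and 7 CHH cytosines, none in region 1, 2 in region 2 and 5 in region 3. At 13038602 in exon 2, the largest of the CHH differences among those at the smallest p, the values were 8.95%, 8.33%, 10.7% and 11.0% in SDG2cd(H1866K)-ZF, against 5.58%, 8.14% and 4.03% in Col-0. The neighbouring 13038603 had 1.67%, 1.54%, 2.06% and 2.00% in SDG2cd(H1866K)-ZF, against 0.936%, 1.23% and 0.949% in Col-0. Their copies in exon 1, 13038391 and 13038392, overlapped between groups. In exon 1, 13038371 had 2.60%, 2.3%, 2.75% and 3.05% in SDG2cd(H1866K)-ZF, against 1.76%, 1.70% and 0.62% in Col-0. Beside it, 13038372 had 1.72%, 1.58%, 1.93% and 2.15% in SDG2cd(H1866K)-ZF, against 1.44%, 1.34% and 0.525% in Col-0. Both lie directly 5′ of the highly methylated 13038370 on the minus strand, in the exon 1 window printed above. In intron 2, 13038665 had 4.22%, 4.15%, 5.04% and 4.94% in SDG2cd(H1866K)-ZF, against 3.73%, 3.57% and 2.04% in Col-0. The last pair, 13038609 and 13038618 in exon 2, had differences of 0.51 and 2.49 points. None of the 9 passed after adjustment, the lowest adjusted p being 0.229 by the exact permutation test.

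By region, the CHH level differed least upstream. In region 1 it was 4.49%, 3.74%, 5.19% and 5.43% in SDG2cd(H1866K)-ZF, against 3.44%, 4.81% and 3.66% in Col-0, a difference of 0.75 points (exact permutation p = 0.257). Leaving out 1 plant gave 0.482 points without the first Col-0 plant of set 2 and 1.17 without the second. In region 2 it was 8.38%, 7.14%, 10.2% and 10.4% in SDG2cd(H1866K)-ZF, against 5.47%, 7.82% and 4.72% in Col-0, a difference of 3.03 points (exact permutation p = 0.114). In region 3 it was 7.63%, 6.31%, 8.47% and 8.27% in SDG2cd(H1866K)-ZF, against 5.25%, 6.71% and 4.42% in Col-0, a difference of 2.21 points (exact permutation p = 0.0857). None passed the adjustment over 8 region tests, where the lowest adjusted p for CHH was 0.229, and SDG2cd(H1866K)-ZF plant 2 lay within the Col-0 range in each region.

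Since plants with high CHH in one region were high in the others, regions were also compared within each plant, a comparison added after the values were seen. The ratio of the CHH level of region 2 to that of region 1 was 1.91 ± 0.0426 in SDG2cd(H1866K)-ZF and 1.5 ± 0.185 in Col-0. It ran from 1.87 to 1.97 in SDG2cd(H1866K)-ZF and from 1.29 to 1.63 in Col-0, so the groups did not overlap (exact permutation p = 0.0286, adjusted p = 0.0571 over 6 such measures). The difference between these regions was 4.32 points in SDG2cd(H1866K)-ZF and 2.04 in Col-0, and the difference between regions 3 and 1 was 2.96 points in SDG2cd(H1866K)-ZF and 1.49 in Col-0, each without overlap and at the same exact permutation p and adjusted p. The ratio of region 3 to region 1 overlapped (1.64 in SDG2cd(H1866K)-ZF and 1.38 in Col-0). Against set 2 alone the ratio of region 2 to region 1 was 1.91 in SDG2cd(H1866K)-ZF and 1.61 in Col-0, again without overlap. Its exact permutation p was 0.0667, the smallest possible, and its adjusted p 0.2. In that setting the difference between regions 2 and 1 was 4.32 points in SDG2cd(H1866K)-ZF and 2.52 in Col-0 (exact permutation p = 0.133, adjusted p = 0.267). That between regions 3 and 1 was 2.96 and 1.86 points (exact permutation p = 0.0667, adjusted p = 0.2). Regions 2 and 3 did not separate the groups, with a ratio of 1.17 in SDG2cd(H1866K)-ZF and 1.09 in Col-0.

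**Figure D3:**
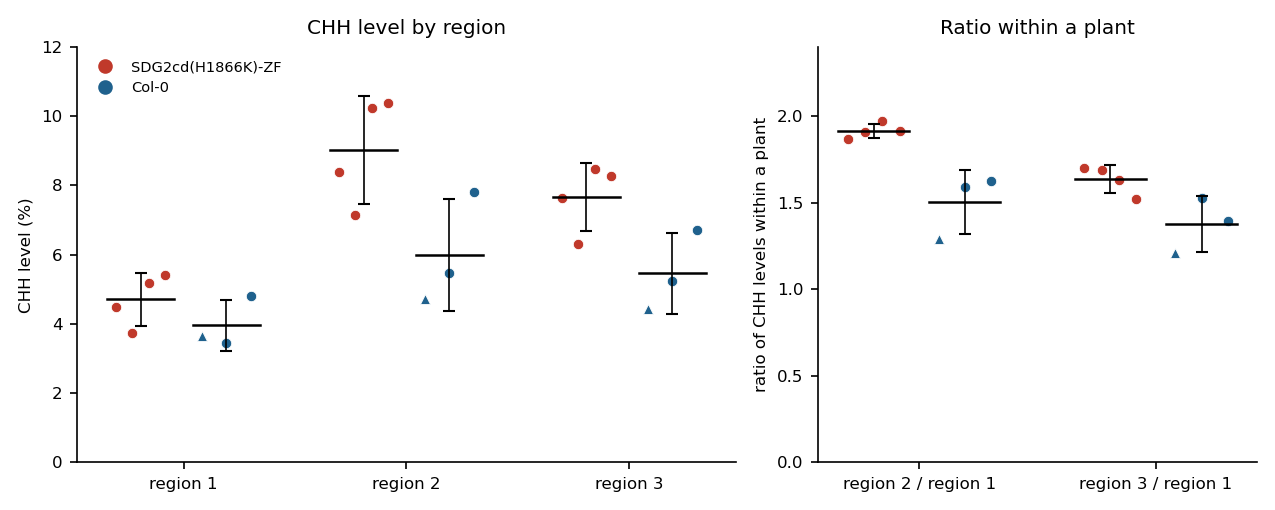
CHH level in percent by region (left) and the ratio of the CHH level of region 2 or 3 to that of region 1 within a plant (right), with 1 point per plant, circles for set 2 and triangles for set 1, a bar for the mean and whiskers of 1 SD. The ratio of region 2 to region 1 lies between 1.87 and 1.97 in the 4 SDG2cd(H1866K)-ZF plants and between 1.29 and 1.63 in the 3 Col-0 plants.

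Between the repeat copies, 17 pairs of CHH cytosines and 4 pairs of CG cytosines match in place and context. At all 17 CHH pairs the mean was higher in SDG2cd(H1866K)-ZF than in Col-0 at both copies, and the difference was larger in the region 2 copy at 12. The Pearson correlation of the differences over the 17 pairs was 0.926, as a description, since the pairs come from the same libraries and near-identical sequence. The pair 13038428 and 13038639 differed by 10.18 and 6.48 points. The pair 13038411 and 13038622 had means of 14.6% and 9.02% in SDG2cd(H1866K)-ZF, against 9.17% and 6.29% in Col-0. The region 3 copy had the larger difference at the other 5 pairs, which were 13038391 and 13038392 of exon 1 and 13038481, 13038484 and 13038485 of intron 1 with their copies.

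By the 2 bases that follow the cytosine on its own strand, CTA cytosines were the most methylated CHH class. The 6 of them had 14.9%, 12.6%, 17.2% and 17.7% in SDG2cd(H1866K)-ZF, against 10.3%, 14.1% and 8.43% in Col-0. The 15 CAA cytosines had 8.33%, 6.92%, 9.92% and 9.91% in SDG2cd(H1866K)-ZF, against 5.29%, 7.62% and 4.43% in Col-0. CTA and CAA are the contexts that CMT2 methylates most in *Arabidopsis*. The 4 CCC cytosines were the least methylated, with 1.29%, 1.11%, 1.33% and 1.47% in SDG2cd(H1866K)-ZF, against 0.986%, 1.11% and 0.979% in Col-0. The mean of SDG2cd(H1866K)-ZF was above that of Col-0 in each of the 9 classes, by a ratio of 1.52 for CAA, 1.48 for CCT, 1.43 for CTA and 1.15 for CTC, and the groups overlapped in each. A ratio above 1.5 was found at 22 of the 57 CHH cytosines. They were 11 of 15 CAA, 3 of 6 CTA, 3 of 8 CCA and 2 of 5 CCT cytosines. A further 1 of 4 CAT, 1 of 4 CCC and 1 of 8 CTT cytosines had such a ratio, and no CAC or CTC cytosine did.

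Against the SDG2-ZF lines the same classes are given as a description, with no test of a difference between classes. At CAA the lines had a lowest level of 0.157%, a median of 2.72% and a highest of 9.29%, and 7 of 8 were below every SDG2cd(H1866K)-ZF plant. At CTA the lowest was 0.197%, the median 4.58% and the highest 14.4%, and again 7 of 8 lines were below. At CCC the lines ran from 0.525% over a median of 4.72% to 9.77%, and 6 of 8 were above every SDG2cd(H1866K)-ZF plant. At CTC they ran from 1.09% over a median of 5.38% to 15.5%, also with 6 of 8 above. At CCC the largest excess was at 13038247 of region 1, with means of 13.3% in SDG2-ZF and 2.25% in SDG2cd(H1866K)-ZF. At CTC it was at 13038240 of region 1, with 17.1% and 9.30%. The remaining CTC cytosines, 13038359 and 13038570, had 1.47% and 1.08% in SDG2-ZF and 1.48% and 1.18% in SDG2cd(H1866K)-ZF. CHH means of regions 1, 2 and 3 were 6.68%, 5.56% and 3.99% in SDG2-ZF and 4.71%, 9.04% and 7.67% in SDG2cd(H1866K)-ZF. Class and region were not separated. In the other 5 classes lines lay on both sides of the SDG2cd(H1866K)-ZF plants, with 5 lines above and 2 below at CCA, 3 above and 4 below at CTT, and 3 above and 5 below at each of CAC, CAT and CCT.

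Per cytosine, 28 of the 74 were higher in SDG2cd(H1866K)-ZF than in SDG2-ZF at an adjusted p under 0.05 by the exact permutation test (37.8%), and 2 were lower (2.7%). The 28 were all 14 CG cytosines, 1 of the 3 CHG cytosines (13038491) and 13 of the 57 CHH cytosines. The 13 were 7 of the 15 CAA, 5 of the 6 CTA and 1 of the 8 CTT cytosines. At 13038370 the SDG2cd(H1866K)-ZF values given above stood against a lowest of 0.0925%, a median of 3.24% and a highest of 13.1% in the SDG2-ZF lines. At 13038171 they stood against a lowest of 0.0924%, a median of 1.21% and a highest of 3.52%. Neither cytosine overlapped between the groups, with differences of 17.53 and 10.04 points. The 2 lower cytosines, 13038173 (CCC) and 13038195 (CCT), were among the least methylated in SDG2cd(H1866K)-ZF, where *fwa* averaged 0.0480% and 0.0969%. At 13038173 the plants had 0.112%, 0.106%, 0.144% and 0.132%, against a lowest of 0.170%, a median of 1.36% and a highest of 2.02% in the SDG2-ZF lines. At 13038195 they had 0.235%, 0.172%, 0.182% and 0.144%, against 0.268%, 1.37% and 2.61%. The Col-0 means were 0.0954% at 13038173 and 0.200% at 13038195, and both overlapped with SDG2cd(H1866K)-ZF.

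A further amplicon in every library lies in *MSH3* (AT4G25540), a mismatch repair gene next to *FWA*, and offers a locus outside the 3 regions. Its 27 cytosines with at least 1000 reads in each library, from 13044647 to 13044770, lie on the plus strand in and beside exon 7. The 7 CG cytosines had 82.4%, 81.0%, 81.4% and 82.6% in SDG2cd(H1866K)-ZF, against 77.4%, 82.9% and 81.9% in Col-0. The difference was 1.15 points (exact permutation p = 0.629). The lowest Col-0 plant was the same that was lowest in CG at *FWA*. The 18 CHH cytosines averaged 0.0826% ± 0.00786 in SDG2cd(H1866K)-ZF and 0.0722% ± 0.00726 in Col-0 (exact permutation p = 0.171). Of the 2 CHG cytosines, 13044700 had 0.933% ± 0.105 in SDG2cd(H1866K)-ZF and 0.815% ± 0.265 in Col-0. The other, 13044767, had 58.9% ± 0.707 in SDG2cd(H1866K)-ZF and 58.7% ± 3.01 in Col-0, and its mean of 57.4% in *fwa*, where the CG cytosines averaged 0.166%, sets it apart from the rest of the amplicon. The CG level at *MSH3* averaged 81.9% ± 0.779 in SDG2cd(H1866K)-ZF and 82.5% ± 4.04 in the SDG2-ZF lines, and the groups overlapped (exact permutation p = 0.772). The CHG level, the mean of 13044700 and 13044767 and in SDG2cd(H1866K)-ZF nearly all from 13044767, did separate them. It was 29.9% ± 0.342 in SDG2cd(H1866K)-ZF and 27.4% ± 0.243 in SDG2-ZF (exact permutation p = 0.00202). It was also lower in set 1 than in set 2 in *fwa*, with 27.1% in set 1 and 29.1% and 29.96% in set 2, and in Col-0, with 28.3% in set 1 and 29.9% and 31.1% in set 2, and the part of the set in that difference was not tested. The p-values of this amplicon were not adjusted.

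**Figure D4:**
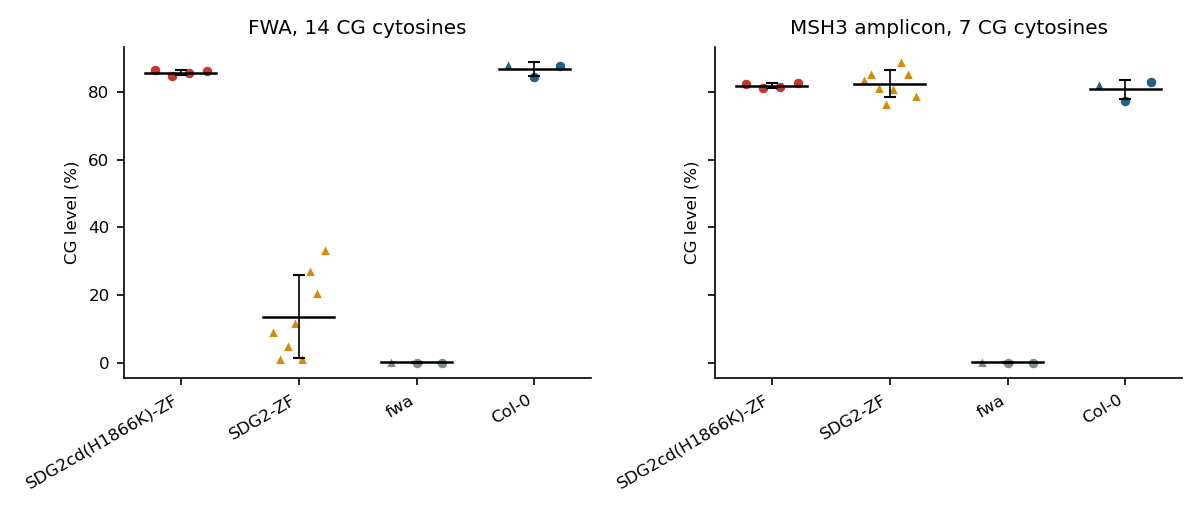
CG level in percent (y axis) at *FWA* (left, 14 cytosines) and at the *MSH3* amplicon (right, 7 cytosines), with 1 point per plant, circles for set 2 and triangles for set 1, a bar for the mean and whiskers of 1 SD. SDG2cd(H1866K)-ZF averages 85.7% at *FWA* and 81.9% at *MSH3*, and the SDG2-ZF lines, at most 33.5% at *FWA*, average 82.5% at *MSH3*.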

How the data were processed

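Leaf DNA was bisulfite converted, 3 regions of *FWA* were amplified, and the pooled products were sequenced. Per the labels, reads were mapped with BSMAP 2.90 to TAIR10. For each cytosine, the deposited files hold a count of C reads, a count of C and T reads together, and the fraction that the authors calculated from both. The study's methods word the mapping for WGBS, with reads that hold a run of methylated CHH cytosines removed, which would lower CHH levels where it was applied here, and say nothing of PCR duplicates in the amplicons. This fraction matched the counts within 0.0006 in all 5369 lines, and all 93 listed cytosines of the regions matched TAIR10.1 in base and context. Of these, 19 never reached 10 reads.

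Regions, groups and lists were chosen with earlier results of these data known. A level gave equal weight to every cytosine with at least 10 reads. Groups were compared over plants by two-sided exact permutation tests on the difference of means, adjusted by the Benjamini-Hochberg method over 9 tests of level, 8 of region level and 74 of cytosines, with a threshold of 0.05. A quasi-binomial logistic model on the counts was the alternative. Both were also run on simulated data, and the outcome is not reported here. For 4 plants against 3 that simulation changed fewer cytosines than the 43 needed at the smallest p. It therefore says little about the adjusted exact test of that comparison. Every CG and CHG cytosine is named, as is every CHH cytosine with a mean of at least 10% in either group. Of the other CHH cytosines the highest and lowest of each region are named, and of those at the smallest p the 3 with the largest difference. Further CHH cytosines were chosen after their values were seen. No 2 of the 7 SDG2cd(H1866K)-ZF and Col-0 libraries were copies of each other, since at least 63 of 74 cytosines differed in each pair by a chi-square test. That test treats reads as independent, so at this depth it cannot show that libraries came from separate plants. Alternatives were other minimums of reads, pooled reads, medians, region means, cytosines under primers, Col-0 or *fwa* of 1 set, a replicate block and each plant left out. The 11 WGBS samples and 2 libraries without a stated background were not used here. Python 3.11.15, numpy 2.4.6, pandas 2.3.3, scipy 1.17.1, statsmodels 0.14.6 and matplotlib 3.10.9 were used.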

Additional observations from a re-analysis of the deposited data

Results flagged for a closer look

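In 91 sets of values, among them the levels, region levels and single cytosines of the 4 SDG2cd(H1866K)-ZF plants, 2 had 1 plant far from the others by Dixon's criterion, which chance alone meets in about 1 in 20 sets. At the CHH cytosine 13038359, just upstream of exon 1, SDG2cd(H1866K)-ZF plant 4 had 1.89%, beside 1.30% to 1.39% in the other 3. At the CG cytosine 13038596 in exon 2 plant 4 had 94.7%, beside 94.2% in each of the other 3. In neither case was the cause tested.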

How the results depend on the processing

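The direction of the differences in CG, CHG and CHH level held in every alternative tried except 1 by region. Of the 92 results from alternatives other than leaving out a plant, 72 were classed as unchanged. For tested levels this meant the same direction and side of the threshold, and for counts of cytosines a similar count. For differences without a test it meant the same direction and a shift below the SD of the SDG2cd(H1866K)-ZF plants. These 72 include every result with a higher minimum of reads or without cytosines under primers, which could not differ from the main ones. No measured cytosine had fewer than 6789 reads, above that minimum, and 0 lay under a primer of their own region. All differences are SDG2cd(H1866K)-ZF minus the named group, in percentage points, with exact permutation p adjusted. The CHG difference from Col-0 was 4.13 with a minimum of 1 read (adjusted exact permutation p = 0.739), 3.71 with pooled reads (0.0857), 2.36 against the Col-0 plants of set 2 alone (0.1), where the smallest p possible cannot pass, and 3.13 with the adjustment over its 3 contexts (0.0857). That adjustment, and the comparisons of regions within a plant, were chosen after seeing the data. Against the set 1 Col-0 plant alone, with no test, CG differed by -2.34 and CHG by 4.67. Against *fwa* the CG, CHG and CHH differences were 86.4, 22.1 and 9.04 with a minimum of 1 read, 85.5, 17.6 and 6.88 with pooled reads, and 85.6, 16.2 and 7.07 against set 2 alone, none past the threshold. With 1 read or pooled reads each exact permutation p before adjustment stayed at its smallest value, and against set 2 alone the smallest p cannot pass. With a minimum of 1 read the CHG difference from SDG2-ZF was 9.78 (adjusted exact permutation p = 0.533). Of the 74 cytosines, 18 passed against SDG2-ZF at an adjusted p under 0.01, and the quasi-binomial model called 32 against SDG2-ZF and 0 against Col-0. Leaving out each plant (leave-one-out) gave CHG differences from Col-0 of 2.36 to 3.83 and differences from *fwa* of 85.3 to 85.9 in CG, 15.6 to 16.6 in CHG and 6.76 to 7.54 in CHH, and none could reach an adjusted p under 0.05 with 1 plant fewer. The CG and CHH differences from Col-0 ran from -2.23 to -0.389 and from 1.58 to 2.69, and the differences from SDG2-ZF from 70.2 to 74.8 in CG, 10.4 to 12.1 in CHG and 1.01 to 2.84 in CHH. The CG difference of region 1 from Col-0 ran from -1.55 to 0.0771, turning positive without the second Col-0 plant of set 2. The ratio of region 2 to region 1 in CHH differed by 0.306 to 0.474. Replicate numbers 1 and 2 are shared within set 2, but the labels give them no meaning, and the correlation of same-numbered deviations over 74 cytosines was -0.044 for number 1 (-0.894 in CG, 0.782 in CHG and 0.790 in CHH) and -0.834 for number 2 (-0.955, -0.705 and -0.950). With the replicate number as a block, with no test, the differences from Col-0 were -0.576 in CG, 1.67 in CHG and 0.704 in CHH. Only 13 of the 74 cytosines had 1 sign within both numbers, 12 higher and 1 lower, and the others did not keep their sign. Where no cause is given, the cause was not tested.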
